A study of Rattus norvegicus with 4 samples.

Results

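Interferon regulatory factors (IRF) and signal transducers and activators of transcription (STAT) are the transcription factors that carry interferon and cytokine signals to the genome. The genes described here were Irf1, Irf2, Irf3, Irf7, Irf8, Irf9, Stat2, Stat3 and Stat6, 9 of the 14497 genes tested. They were taken by gene symbol from the array annotation, and each was read by 1 probe set that carried no other symbol. The samples were primary cultures of hippocampal neurons from embryonic rats, and their poly(A) RNA was read on 4 whole-transcript arrays. The neurons were transduced either with an shRNA against Gld2 (2 cultures) or with a scrambled shRNA (2 cultures). Gld2, now Tent2, is a cytoplasmic poly(A) polymerase that extends the tails of selected mRNAs. The labels give no strain, vector or time after transduction and do not say that replicate cultures were prepared separately, so the p-values rest on a spread that may be technical. The RNA had been released by heat from poly(U) Sepharose, and in bulk RNA of this kind a change in transcript amount, a change in tail-dependent recovery and a change in the number of cells of a type cannot be told apart.

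IRF3 and IRF7 wait in the cytoplasm until sensors of foreign RNA or DNA trigger their phosphorylation, after which they switch on the type I interferon genes. Secreted interferon then acts through its receptor and Janus kinases (JAK) on STAT2, which joins a partner STAT and the DNA-binding subunit IRF9 in the complex ISGF3, and ISGF3 binds interferon-stimulated response elements (ISRE). IRF1 is an activator of many of the same genes and is itself induced through gamma-activated sites (GAS), palindromic elements bound by STAT dimers, while IRF2 occupies IRF1 sites and was first described as its antagonist. IRF8 acts mainly in myeloid cells and is needed for microglia, STAT3 transmits signals of the interleukin 6 family and acts in reactive astrocytes, and STAT6 transmits those of interleukins 4 and 13.

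Values below are log2 RMA values as deposited, and every difference is Gld2 shRNA minus scrambled shRNA on that scale. A gene was called when its adjusted p was under 0.05 by limma, with Benjamini-Hochberg (BH) adjustment over all 14497 genes. The targeted gene Tent2 stood at 9.50 and 9.35 with Gld2 shRNA and at 10.73 and 10.67 with scrambled shRNA, which follows the labels. Gld2 shRNA replicate 2 stood farther from the controls than replicate 1. Over all genes its median absolute difference from the scrambled shRNA cultures was 0.155 and 0.140, against 0.0998 and 0.0919 for replicate 1. Replicate 2 also had the smallest SD of values over genes, 1.89 against 1.95 for replicate 1 and 1.96 and 1.95 for scrambled shRNA. Its median over all probe sets was the highest, 8.48 against 8.41 for replicate 1 and 8.41 and 8.43 for scrambled shRNA. Neuron markers had a mean log2 value of 12.20 and 12.19 with Gld2 shRNA and 12.36 and 12.32 with scrambled shRNA, and 0 of the 13 measured lay in the lowest 25% of genes by level. Astrocyte markers had a mean of 12.065 and 12.02 with Gld2 shRNA and 12.042 and 12.069 with scrambled shRNA, with 0 of 8 in that range. In contrast, 9 of 17 microglia markers lay in it. The values are of bulk RNA and do not say which cells held the IRF and STAT transcripts.

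Knockdown cultures had higher array values for the 2 subunit genes of ISGF3 on the list, Stat2 and Irf9. Values of Irf7 and Irf1 were higher too, each of the 4 by more than 2-fold, and that of Irf2 was slightly higher. Irf3, Irf8, Stat3 and Stat6 did not pass the test. Of the 9 genes, 5 were called higher and 0 lower, whereas over all genes 1.69% were called higher (245 genes) and 2.41% lower (349 genes). The 9 genes were chosen with earlier results of these data known, so their counts are no independent test. An unadjusted p under 0.05 in limma was found for 6 of the 9, all of them higher, beside 25.4% of all genes in either direction and 9.24% on the higher side. The split over all genes differed between scalings. It was 558 higher and 1367 lower after centring each array on the median of all probe sets, and 218 higher and 94 lower after centring on the median of the genes tested. Centring on all probe sets left the Irf7 difference at 2.78, from 2.80, but took its adjusted p in limma from 2.75e-05 to 1.33e-30. The moderated spread thus changed too, and these counts do not show scaling alone. Under both centrings 5 of the 9 genes were called higher and 0 lower. The median difference of the 9 genes was 0.34, beside -0.02 over all genes.

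The promoters of the genes that rose most are shown because ISRE and GAS elements are the textbook routes by which interferon induces IRF and STAT genes. RefSeq promoter windows of assembly GRCr8, 300 bases running from 250 before to 50 after the transcription start, were found for 8 of the 9 genes, all but Irf2. Each was searched on both strands for an ISRE core, GAAANNGAAA, and for a GAS, TTCNNNGAA. The sequences are written 5′ to 3′ on the strand of the gene, with matches in capitals. Irf7 lies on the minus strand at chr1:205799974-205800273. The others lie on the plus strand, Irf1 at chr10:38417685-38417984, Irf9 at chr15:33065586-33065885, Stat2 at chr7:1286840-1287139 and, as a member that did not pass the test, Irf8 at chr19:65699034-65699333.
Irf7: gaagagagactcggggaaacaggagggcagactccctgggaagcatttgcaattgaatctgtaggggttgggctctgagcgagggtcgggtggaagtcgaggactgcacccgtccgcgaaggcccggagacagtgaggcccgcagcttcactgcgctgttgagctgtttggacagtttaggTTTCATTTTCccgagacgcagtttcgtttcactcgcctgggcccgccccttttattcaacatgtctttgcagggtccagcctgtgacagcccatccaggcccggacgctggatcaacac
Irf1: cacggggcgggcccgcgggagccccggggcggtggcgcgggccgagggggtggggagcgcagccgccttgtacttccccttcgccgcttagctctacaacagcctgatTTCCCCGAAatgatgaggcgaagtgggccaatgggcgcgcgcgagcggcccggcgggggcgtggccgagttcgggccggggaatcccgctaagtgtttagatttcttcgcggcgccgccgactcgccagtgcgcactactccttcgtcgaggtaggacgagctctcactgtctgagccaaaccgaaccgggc
Irf9: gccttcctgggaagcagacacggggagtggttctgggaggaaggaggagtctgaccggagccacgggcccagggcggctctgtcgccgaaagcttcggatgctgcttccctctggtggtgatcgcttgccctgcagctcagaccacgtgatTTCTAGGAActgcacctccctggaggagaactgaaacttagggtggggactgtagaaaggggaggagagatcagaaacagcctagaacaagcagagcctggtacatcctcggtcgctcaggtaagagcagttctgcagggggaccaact
Stat2: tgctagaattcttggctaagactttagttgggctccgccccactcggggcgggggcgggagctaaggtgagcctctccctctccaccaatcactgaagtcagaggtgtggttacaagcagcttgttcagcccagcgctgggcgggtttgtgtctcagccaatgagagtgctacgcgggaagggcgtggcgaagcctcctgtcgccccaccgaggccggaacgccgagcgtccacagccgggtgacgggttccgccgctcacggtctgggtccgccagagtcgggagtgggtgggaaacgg
Irf8: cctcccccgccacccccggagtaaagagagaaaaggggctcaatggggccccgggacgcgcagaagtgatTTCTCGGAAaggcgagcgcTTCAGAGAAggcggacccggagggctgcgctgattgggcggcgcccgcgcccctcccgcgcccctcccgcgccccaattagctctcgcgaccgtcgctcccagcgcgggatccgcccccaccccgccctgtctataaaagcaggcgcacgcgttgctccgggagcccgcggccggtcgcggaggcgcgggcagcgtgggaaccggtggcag

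The Irf7 window held the only ISRE core among the 8 windows, TTTCATTTTC on the strand shown, from -69 to -60 relative to the start. GAS letters stood in the Irf1 window (TTCCCCGAA, from -142 to -134), in the Irf9 window (TTCTAGGAA, from -99 to -91) and at 2 places in the Irf8 window (TTCTCGGAA, from -180 to -172, and TTCAGAGAA, from -161 to -153). The wider STAT6-type spacing, TTCNNNNGAA, was found in the Irf9 window alone, from -247 to -238 (TTCCTGGGAA). The windows of Irf3, Stat2, Stat3 and Stat6 held none of these letters. Of all 33469 promoters in the table, 3.92% held the ISRE core, 8.87% the GAS and 7.28% the STAT6-type spacing. Among genes called higher with a promoter in the table, 54 of 199 held the ISRE core (27.1%), against 6 of 284 among genes called lower (2.11%). For the GAS the shares were 28 of 199 (14.1%) and 11 of 284 (3.87%). These shares describe letters in a window and were not tested.

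Irf7, the inducible partner of IRF3 and the factor that amplifies interferon production, had the largest difference of the 9 genes. It stood at 11.57 and 11.41 with Gld2 shRNA and at 8.70 and 8.68 with scrambled shRNA. Both knockdown cultures lay far above both controls, and the controls were nearly alike. The means were 11.49 ± 0.108 and 8.69 ± 0.00863 (SD, n = 2 each), a difference of 2.80 (standard error 0.0737, 95% confidence interval 2.62 to 2.98). That is 6.96-fold higher in the Gld2 shRNA cultures (BH-adjusted p = 2.75e-05, limma), rank 19 among all 14497 differences from the highest down. Its promoter was the one shown above with the ISRE core, and the part of that element in the difference was not tested.

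**Figure D1:**
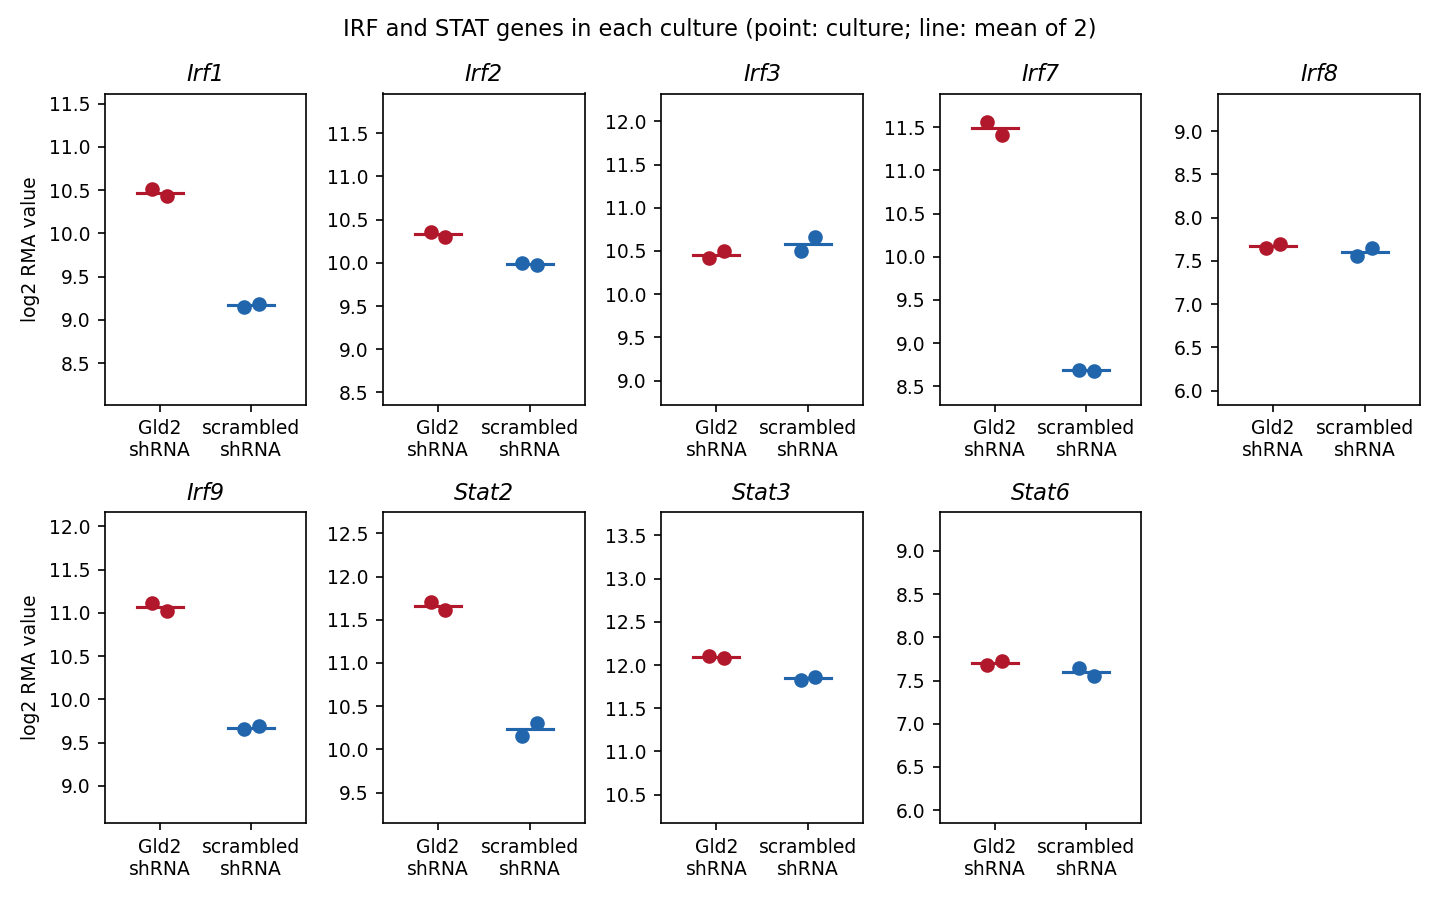
Log2 RMA value (vertical axes, each spanning the same number of log2 units) of each IRF and STAT gene in Gld2 shRNA cultures (red, left) and scrambled shRNA cultures (blue, right). Points are cultures and lines are means of 2. For Irf7, Stat2, Irf9 and Irf1 both red points sit more than 1 log2 unit above both blue points.

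Stat2, the STAT that acts mainly in type I and type III interferon signalling, stood at 11.71 and 11.61 with Gld2 shRNA, against 10.15 and 10.31 with scrambled shRNA. The means were 11.66 ± 0.0693 and 10.23 ± 0.111 (SD, n = 2 each). The difference was 1.43, with a standard error of 0.0794 and an interval of 1.23 to 1.62, or 2.69-fold higher (BH-adjusted p = 0.000592, limma). The groups did not overlap.

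Irf9, which gives ISGF3 its DNA contact, changed by almost the same amount as its partner. It stood at 11.11 and 11.02 with Gld2 shRNA and at 9.65 and 9.69 with scrambled shRNA, with means of 11.06 ± 0.0630 and 9.67 ± 0.0235 (SD, n = 2 each). The difference was 1.40 (standard error 0.0648, interval 1.24 to 1.55), or 2.63-fold higher, with a BH-adjusted p of 0.000278 in limma. The intervals of Stat2 and Irf9 overlapped over most of their length.

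Irf1, the activator whose promoter window held a GAS match, stood at 10.51 and 10.43 with Gld2 shRNA, against 9.15 and 9.19 with scrambled shRNA. The means were 10.47 ± 0.0605 and 9.17 ± 0.0294 (SD, n = 2 each). Its difference of 1.30 (standard error 0.0648, interval 1.15 to 1.46) was 2.47-fold (BH-adjusted p = 0.000383, limma). The intervals of Stat2, Irf9 and Irf1 overlapped one another and lay below that of Irf7. Among all differences these 3 genes took ranks 50, 54 and 60 from the highest down.

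Irf2, the factor that shares sites with IRF1, rose by far less, and 6 of the 14 alternatives ended its call. It stood at 10.35 and 10.30 with Gld2 shRNA and at 10.00 and 9.98 with scrambled shRNA, and the groups did not overlap. The means were 10.33 ± 0.0360 and 9.99 ± 0.0184 (SD, n = 2 each), a difference of 0.34 with an interval of 0.19 to 0.49, or 1.27-fold higher (BH-adjusted p = 0.0426, limma). It was no longer called when Gld2 shRNA replicate 2 (adjusted p = 0.0772), scrambled shRNA replicate 1 (0.318) or scrambled shRNA replicate 2 (0.295) was left out, or when unnamed probe sets were tested too (0.0950), all by limma. With 1 culture left out, the group with a single culture was assumed to vary like the other, whose 2 cultures alone gave the residual spread. Over these 4 settings the difference itself stayed between 0.33 and 0.37, and over all 14 alternatives its adjusted p ran from 0.00149 to 0.318. Its interval lay wholly below those of Irf1, Irf9, Stat2 and Irf7.

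**Figure D2:**
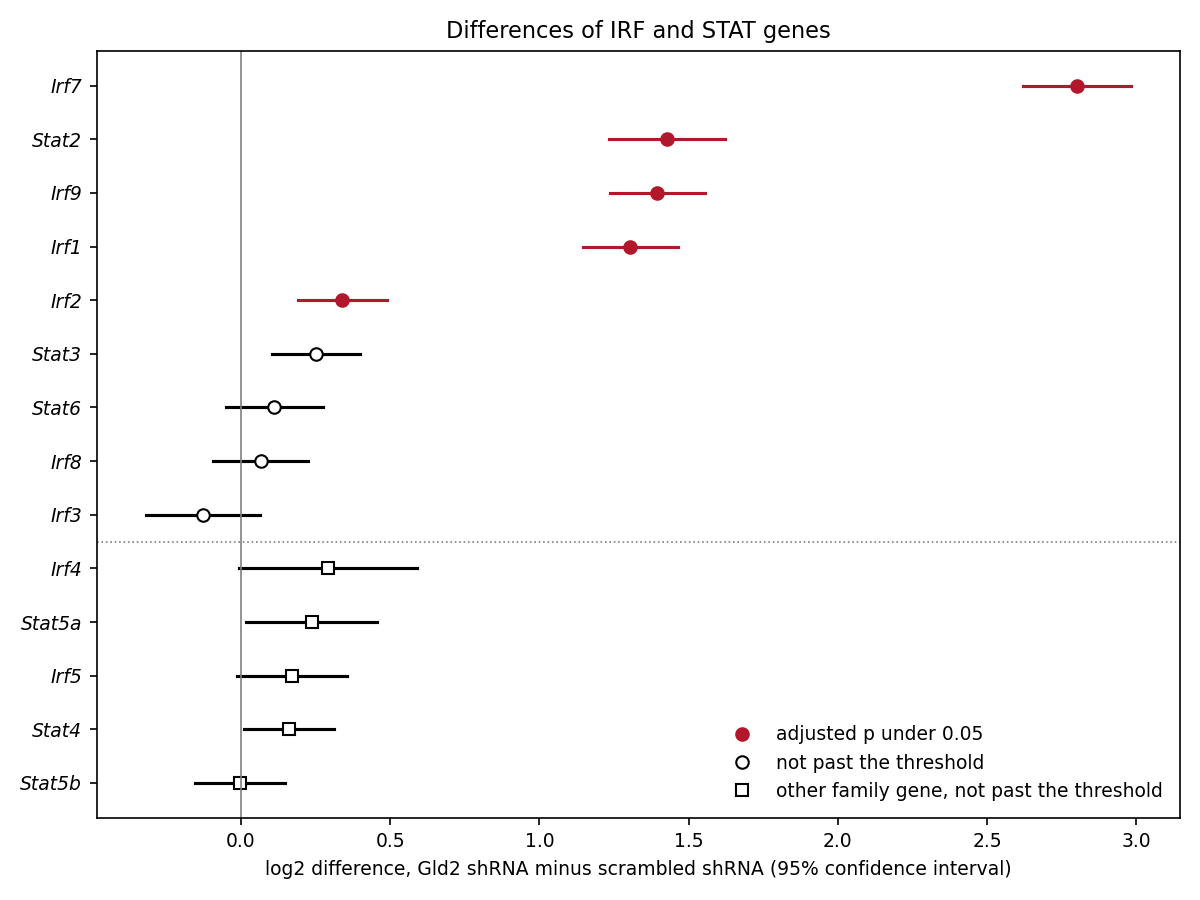
Log2 difference, Gld2 shRNA minus scrambled shRNA (horizontal axis), with its 95% confidence interval, for the 9 IRF and STAT genes (circles) and 5 other genes of the families (squares, below the dotted line). Filled red symbols have an adjusted p under 0.05 and run from 0.34 (Irf2) to 2.80 (Irf7). Open symbols did not pass and lie between -0.13 (Irf3) and 0.29 (Irf4).

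Stat3 missed the threshold by little. It stood at 12.11 and 12.08 with Gld2 shRNA, against 11.83 and 11.86 with scrambled shRNA, and both knockdown cultures lay above both controls. The difference was 0.25 with an interval of 0.10 to 0.40, or 1.19-fold (BH-adjusted p = 0.0792, limma), so a rise of more than 1.32-fold lies outside the interval. It was called when the prior variance was allowed to follow signal level (adjusted p = 0.000553), after cyclic loess (0.0471) and without the genes below the median or the 25th percentile of level (0.0123 and 0.0358), by limma in each case, with differences of 0.25 to 0.27. Over its 14 alternatives the adjusted p ran from 0.000553 to 0.426.

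Irf3, the constitutive partner of IRF7, was the one gene of the 9 with a value below 0. It stood at 10.42 and 10.50 with Gld2 shRNA and at 10.50 and 10.67 with scrambled shRNA. The nearest cultures of the groups differed by less than the cultures within either group did. The difference was -0.13, with an interval from -0.32 to 0.07 (BH-adjusted p = 0.348, limma). The interval ends at 1.05-fold on its upper side, far under the change of Irf7.

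Irf8 and Stat6 had the dimmest probe sets of the 9 genes, both in the lowest 25% of genes by level. Irf8 stood at 7.65 and 7.69 with Gld2 shRNA and at 7.56 and 7.65 with scrambled shRNA, so the groups nearly touched. Its difference was 0.07 with an interval from -0.09 to 0.23 (BH-adjusted p = 0.551, limma), and it was -0.01 after cyclic loess. Stat6 stood at 7.68 and 7.73 with Gld2 shRNA and at 7.64 and 7.55 with scrambled shRNA, a difference of 0.11 with an interval from -0.05 to 0.27 (BH-adjusted p = 0.330, limma). No detection calls were among the sources used here, so neither value shows that the transcript was present.

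In all 9 genes the 2 groups did not overlap, 8 of them with Gld2 shRNA on the higher side and 1 (Irf3) on the lower side. Over all genes 24.0% had non-overlapping groups with Gld2 shRNA higher and 34.5% with it lower, so separation of 2 cultures from 2 was common. The cultures of a group differed little in these genes. The median absolute difference over the 9 genes was 0.0758 within the Gld2 shRNA pair and 0.0416 within the scrambled shRNA pair, whereas it was 0.302 to 0.379 across the groups. Leaving out any 1 culture moved the difference of Irf7 between 2.72 and 2.88, of Stat2 between 1.35 and 1.51, of Irf9 between 1.35 and 1.44 and of Irf1 between 1.26 and 1.35. All 4 stayed past the threshold in each of those fits.

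Microglia can be a source of IRF8 and respond to interferon, so their markers were read beside these genes. Of 17 measured microglia markers 0 were called in limma (1.69% called higher and 2.41% lower over all genes). An unadjusted p under 0.05 in limma was found for 3, all higher (9.24% of all genes on that side, 25.4% in either direction). The groups did not overlap for 10, all with Gld2 shRNA higher, beside 24.0% of all genes on that side and 34.5% on the lower. Differences above 0 were found for 16, beside 6699 of all 14497 genes. The median difference was 0.14, beside -0.02 over all genes. The log2 of their summed linear values was 11.92 and 12.03 with Gld2 shRNA, against 11.83 and 11.84 with scrambled shRNA. The markers with the smallest p were C1qb (0.24), Cx3cr1 (0.30) and Tyrobp (0.21), with adjusted p from 0.0887 to 0.177 by limma after BH adjustment. The brightest marker probe sets were Tmem119, Cd68 and C1qc, with differences of 0.05, -0.02 and 0.23. No value on this scale is 0, so a marker cannot be read as absent, and the part of microglia in the IRF and STAT differences was not tested. Of 8 astrocyte markers 0 were called higher and 1 lower, with a median of 0.06 and log2 sums of 15.44 and 15.39 with Gld2 shRNA against 15.40 and 15.42 with scrambled shRNA. Of 7 T and B lymphocyte markers 0 were called in limma and the median was 0.19. For 2 the unadjusted p in limma was under 0.05, both higher (9.24% of all genes on that side, 25.4% in either direction). Of these 7 markers, 6 had differences above 0 and 5 lay in the lowest 25% of genes by level. Of the 17 microglia markers 9 lay there too, and whether the shifts of either set go with level was not tested.

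Neurons are the cells the cultures were named for, and 2 neuron markers were called lower. Of 13 measured, 0 were called higher and 2 lower. Over all genes 1.69% were called higher and 2.41% lower, the shares to set beside each count of calls in this paragraph. On the deposited scale 12 of the 13 had differences below 0, beside 7798 of all 14497 genes, at a median of -0.04 beside -0.02 over all genes. All 13 lay above the median level, and over the 7249 genes not below that level the median difference was -0.06. The shift of the neuron markers as a set was thus no larger than that of bright genes. The 2 called lower were Elavl4, an RNA-binding protein of neurons (-0.73, adjusted p = 0.00933, limma), and Dcx, a microtubule protein of young neurons (-0.38, adjusted p = 0.0499, limma). Of 6 excitatory neuron markers 1 was called lower, the dentate granule cell factor Prox1 (-0.59, adjusted p = 0.0259, limma). Of 9 interneuron markers 1 was called lower, the neuropeptide Vip (-0.43, adjusted p = 0.0417, limma), and the astrocyte marker called lower was the gap junction gene Gja1 (-0.39, adjusted p = 0.0351, limma). Of 8 oligodendrocyte lineage markers 1 was called higher, the myelin enzyme Cnp (0.54, adjusted p = 0.0169, limma). Of 8 endothelial and pericyte markers 0 were called in limma, 3 with an unadjusted p under 0.05 (25.4% over all genes). Alternatives ended the call of Elavl4 in 3 of 14, of Prox1 and Cnp in 4 of 14, of Dcx and Gja1 in 6 of 14 and of Vip in 7 of 13. The part of these cells in the IRF and STAT differences was not tested.

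Of 5 other genes of the families 0 were called, and 2 had an unadjusted p under 0.05 in limma. Both were higher (9.24% of all genes on that side, 25.4% in either direction). Irf4, a lymphoid and myeloid factor, had a difference of 0.29 (BH-adjusted p = 0.203, limma), Stat5a 0.24 (0.174), Irf5 0.17 (0.217), Stat4 0.16 (0.179) and Stat5b -0.002 (0.987). With Gld2 shRNA replicate 2 as the only knockdown culture, Irf4 at 0.43 (adjusted p = 0.0493) and Stat5a at 0.35 (adjusted p = 0.0317) were called by limma. That fit took its residual spread from the scrambled shRNA pair alone, and the culture kept was the one farther from the controls. Stat5b stood above 0 after either cyclic loess or centring on the genes tested. Of the IRF2 binding proteins, a family of transcriptional corepressors, Irf2bp1 was at 0.05 and Irf2bpl at -0.002, and neither passed.

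Calls among genes that act upstream of these factors depended on the setting, and over all genes 1.69% were called higher and 2.41% lower. Of 10 measured adaptors and kinases that lead to IRF3 and IRF7 phosphorylation, 0 were called in either direction, 5 had an unadjusted p under 0.05 in limma (25.4% over all genes) and the median was -0.13. The 3 with the smallest p were the kinase Irak1 (-0.33, adjusted p = 0.0515), the ubiquitin ligase Traf6 (-0.30, adjusted p = 0.0524) and the Toll-like receptor adaptor Myd88 (0.36, adjusted p = 0.0770), by limma after BH adjustment. Alternatives called Irak1 in 5 of 14, Traf6 in 4 of 13 and Myd88 in 6 of 14, with directions kept. With the prior variance following signal level, with centring on all probe sets or without the genes below the 25th percentile of level, 1 adaptor was called higher and 2 lower. Of 15 receptor and JAK genes, 1 rose and 1 fell, at a median of 0.05, and over the 14 alternatives 0 to 3 were called higher and 0 to 2 lower. Il10rb, a receptor chain shared by interleukin 10 and type III interferons, stood at 10.21 and 10.11 with Gld2 shRNA and at 9.75 and 9.65 with scrambled shRNA (0.46, adjusted p = 0.0323, limma). Il6r, the interleukin 6 receptor that feeds STAT3, stood at 9.18 and 8.88 with Gld2 shRNA and at 9.63 and 9.57 with scrambled shRNA (-0.57, adjusted p = 0.0464, limma). Alternatives ended the call of Il10rb in 4 of 14 and that of Il6r in 6 of 14, centring on the genes tested included for Il6r (adjusted p = 0.0778, limma). Its signalling partner Il6st was at -0.28 and did not pass (adjusted p = 0.0683, limma). Picked for their role after their values were seen, the type I interferon receptor chain Ifnar1 was at 0.03, Jak1 at -0.04, Jak2 at 0.10 and Jak3 at 0.01, none of them called.

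Among 16 measured negative regulators of STAT signalling, 2 rose and 0 fell (1.69% and 2.41% over all genes), and the median was -0.04. Usp18, a protease that removes ISG15 and restrains the type I interferon receptor, rose by 3.42 (adjusted p = 7.73e-05), and Socs1, which inhibits JAKs, rose by 0.59 (adjusted p = 0.0181), both by limma after BH adjustment. Socs1 lost its call in 5 of 14 alternatives, among them the fits without Gld2 shRNA replicate 2 (adjusted p = 0.0515), scrambled shRNA replicate 1 (0.193) or scrambled shRNA replicate 2 (0.0985), by limma. Socs3, the inhibitor that STAT3 induces, was at 0.32 and did not pass (adjusted p = 0.0683, limma).

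Genes listed as targets of ISGF3 rose almost throughout, and the activity of ISGF3 itself was not measured. Of 32 measured, 30 rose, 0 fell and 2 (Oas3 and Ifit1) did not pass, at a median of 2.13, beside -0.02 over all genes. Over all genes 1.69% were called higher and 2.41% lower. The lists in this paragraph were drawn up with earlier results of these data known, so their counts are no independent test. The count of ISGF3 targets called higher was 29 after centring on the genes tested and 0 without moderation across genes. The antiviral genes with the smallest p were Oas1b (3.69), Mx1 (3.71) and Oasl2 (3.64). Of the 22 ISGF3 targets with a promoter in the table, 16 held the ISRE core (72.7%) and 5 the GAS (22.7%). Of 19 genes induced by IRF1 or by STAT dimers after interferon gamma, 16 rose, 0 fell and the median was 0.62. The chemokine Cxcl11 (3.79) and the guanylate-binding protein genes Gbp5 (2.81) and Gbp2 (2.76) had the smallest p, and Cd74, Ciita and Ido1 did not pass. Without scrambled shRNA replicate 1 or replicate 2 the count of this list was 7, and over all 14 alternatives it ran from 0, without moderation across genes, to 17. In this list 11 of 16 promoters held the ISRE core (68.8%) and 5 the GAS (31.2%).

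**Figure D3:**
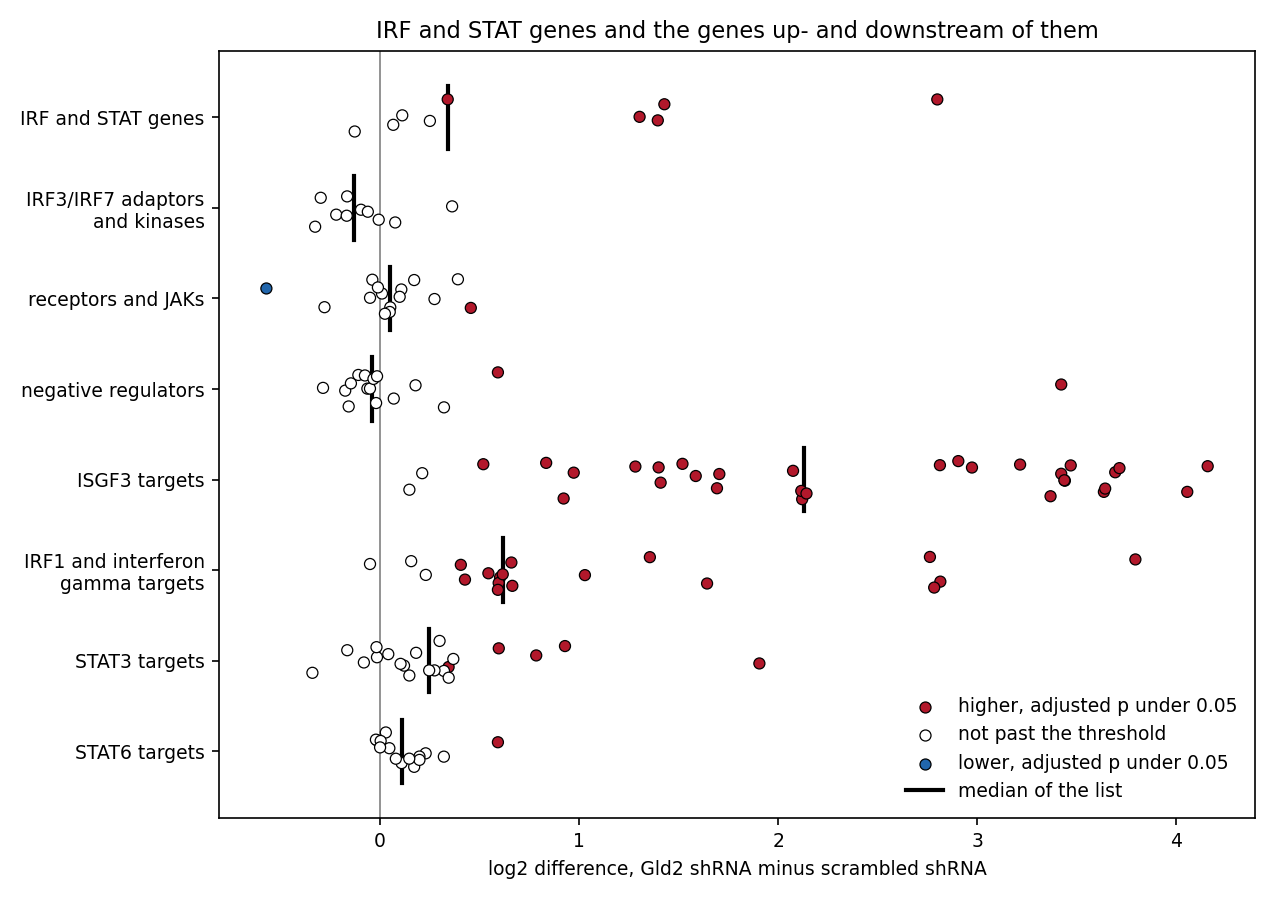
Log2 difference, Gld2 shRNA minus scrambled shRNA (horizontal axis), of the 9 IRF and STAT genes and of genes listed up- and downstream of them (rows, points spread vertically for legibility). Red points are called higher, the blue point lower, open points did not pass, and bars are list medians. ISGF3 targets centre on 2.13, while the adaptors, receptors and negative regulators centre between -0.13 and 0.05.

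Targets of STAT3 and STAT6 had smaller median differences. Of 21 measured STAT3 targets, 5 rose and 0 fell (1.69% and 2.41% over all genes), and 16 did not pass, at a median of 0.25. The 5 were the iron-binding acute phase protein Lcn2 (1.91), the cytokine Il6 (0.93), the protease inhibitor Timp1 (0.79), the cyclin Ccnd1 (0.60) and the kinase Pim1 (0.34). The count depended strongly on the setting. It was 14 higher and 1 lower with the prior variance following signal level, 9 higher and 1 lower with centring on all probe sets, and 8 higher and 1 lower without Gld2 shRNA replicate 1 or without the genes below the 25th percentile of level. After cyclic loess it was 9 higher and 0 lower. Without scrambled shRNA replicate 1 it was 1, without scrambled shRNA replicate 2 it was 2, and without moderation it was 0. Pim1 lost its call in 6 of 14 alternatives, Ccnd1 in 3 and Timp1 in 2, all with directions kept. Lcn2 and Il6 are also known targets of other inflammatory factors. None of the 15 STAT3 targets with a promoter held the ISRE core, and 1 held the GAS (6.67%, beside 8.87% of all promoters). Of 15 STAT6 targets only Socs1, which stands in 3 of the lists, rose, 0 fell and the median was 0.11, and over the 14 alternatives 0 to 3 were called higher. Gata3 (0.32) and Ccl17 (0.23), lineage factor and chemokine of the interleukin 4 response, came next by p and did not pass. Among the 11 STAT6 targets with a promoter, 4 held the GAS (36.4%), 1 the ISRE core and 1 the STAT6-type spacing (9.09% each).

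Likeness of pattern was measured by the root mean square difference between values centred on each gene's own mean, over the 4 arrays. Nearest to Irf7 were Gbp2 (0.0480 log2 units), the RNA sensor gene Rig1 (0.0714) and Gbp5 (0.0715). Nearest to Stat2 were Lgals3bp (0.0437), Irf9 (0.0468) and the kinase gene Eif2ak2 (0.0529). Tap1, which encodes a peptide transporter of antigen presentation, and C1s, a complement protease gene, were the nearest to both Irf9 (0.0210 and 0.0453) and Irf1 (0.0268 and 0.0313). Next came Irf1 itself for Irf9 (0.0458) and Ube2l6 for Irf1 (0.0389). For Irf2 the nearest were Anxa5 (0.0118), Clec2g (0.0118) and Pim1 (0.0138), all with differences of 0.32 to 0.34. With 4 arrays in 2 groups, such likeness mostly states that the group differences were alike.

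**Figure D4:**
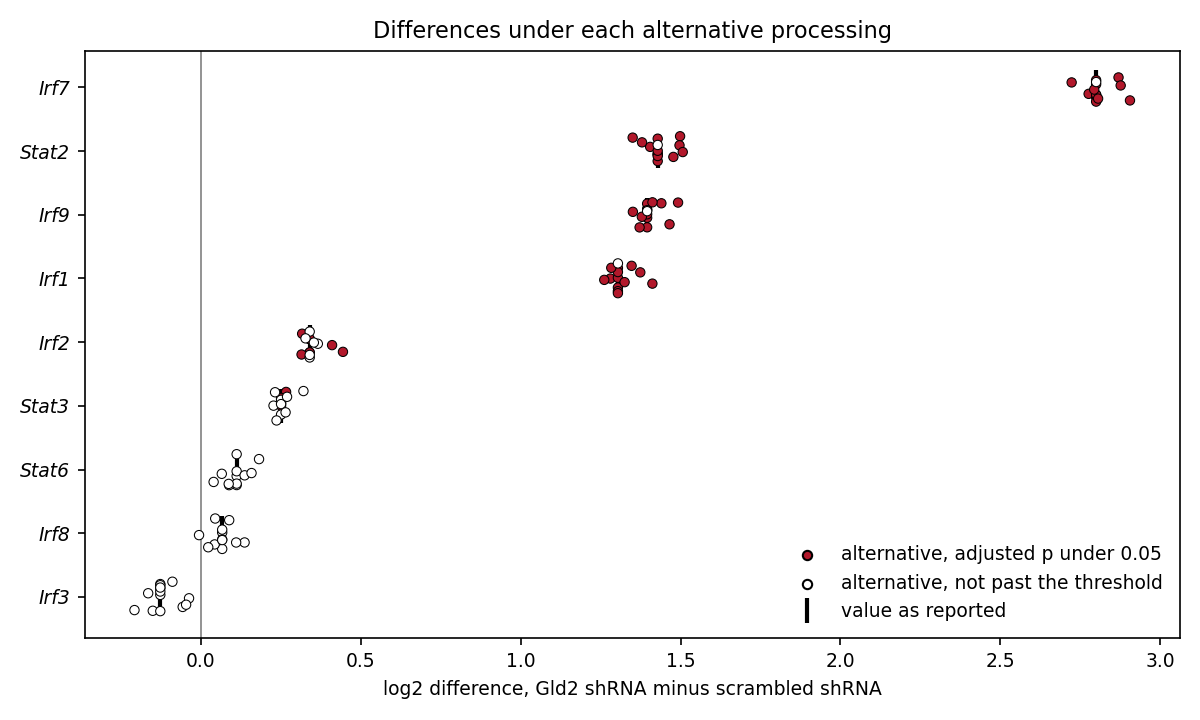
Log2 difference, Gld2 shRNA minus scrambled shRNA (horizontal axis), of each IRF and STAT gene under each alternative processing (points, spread vertically for legibility), with the value as reported as a bar. Red points have an adjusted p under 0.05. Irf7 stays between 2.72 and 2.91 and Irf1 between 1.26 and 1.41, while Irf2 and Stat3 have both red and open points.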

How the data were processed

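Poly(A) RNA of 2 Gld2 shRNA and 2 scrambled shRNA cultures was hybridised after amplification (Ambion kit) and biotin labelling (Affymetrix kit), per the labels' protocols. The deposited values are RMA values on the log2 scale, for which the submitters' processing notes name RMA and affy. Settings, versions and build are not given there or in the other sources, and the log2 scale was read from the values (3.23 to 14.3). The table held 28826 probe sets. The 15209 with 1 gene symbol in the platform annotation gave 14497 genes, and where a gene had several probe sets the one with the highest mean was used. Groups were compared with lmFit and eBayes of limma 3.58.1 (R 4.3.3), two-sided, with 2 residual degrees of freedom plus 3.96 from moderation, after a check on simulated data. No further normalization was applied. Precision is limited by the number of arrays.

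The members and lists were chosen with earlier results of these data known. Genes named were the 9 members, Tent2, the 3 genes of each list with the smallest p, microglia markers by p and level, and the 3 genes likest to each called member. Others are marked where named or complete a count of 5 or fewer, as called cell markers do. The lists were other family genes, IRF2 binding proteins, adaptors and kinases, receptors and JAKs, negative regulators, and targets of ISGF3, of IRF1 and interferon gamma, of STAT3 and of STAT6. Ddx58 was matched to Rig1 through RefSeq synonyms. Alternatives changed the moderation, scaling, filter, probe set rule, threshold, replicate block and cultures used.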

Additional observations from a re-analysis of the deposited data

How the results depend on the processing

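Irf7, Stat2, Irf9 and Irf1 stayed called in 13 of 14 alternatives each, the exception being the test without moderation across genes, which called 0 members and 1 gene higher and 0 lower. Of 122 member values under alternatives, 107 kept direction and side of the threshold, 10 lost the call, 4 gained it (all Stat3) and 1 changed sign, Irf8 at -0.0055 after cyclic loess. Members called higher numbered 4 to 5 without 1 culture and members called lower 0. Over all genes the fits without 1 culture called 82 to 1283 higher and 3 to 1406 lower. All genes higher and lower numbered 467 and 1017 at an adjusted p under 0.1, 110 and 33 under 0.01, and 621 and 1611 when the prior variance was allowed to follow signal level. Centring on all probe sets gave 558 and 1367, and cyclic loess gave 370 higher. Genes lower numbered 94 after centring on the genes tested, a setting chosen after seeing the data, 1287 and 949 with genes under the median or 25th percentile of level left out, and 116 over all probe sets. The cause of these shifts was not tested. With the final digit of the titles as a replicate block, 4 members were called higher (Irf2 at an adjusted p of 0.0516 by limma) and 233 genes higher and 332 lower. The numbers are not stated to pair the cultures, and the replicate differences of the groups correlated over genes at r = 0.143. Among genes that were not called, Stat5b was 0.068 after centring on the genes tested and 0.10 after cyclic loess, and Irf2bpl 0.068 and 0.077. Without 1 culture Stat5b ran from -0.033 to 0.029, Irf2bpl from -0.082 to 0.077 and Irf2bp1 from -0.039 to 0.13. Irf8 and Stat6 fell out of the fits that left out dim genes, and signal over background was not tested for want of detection calls.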
